A study of Saccharomyces cerevisiae with 14 samples.

Results

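The comparison asked how the loss of the histone deacetylase gene RPD3 alters the change in RNA between glucose exhaustion and quiescence in budding yeast. For each gene it took the log2 change from DS to Q in the mutant minus the same change in the wild type, and this value is called the genotype difference below. Genes entered if their name was used once in the deposited table, if all 4 conditions had a value, and if at least 1 condition reached 1 FPKM. Of 6598 uniquely named genes, 6275 met the rule and 323 did not. Of the 323, 267 lacked a value in at least 1 condition, 108 of them because their entries for mutant DS cells duplicate entries of the mutant Q column and were discarded, and 56 were below 1 FPKM in all 4. STE3 was the gene just inside the limit, at 1.02, 0.695, 0.503 and 0.638 FPKM in wild-type DS, wild-type Q, mutant DS and mutant Q cells, and YOL160W was just outside it, with a highest value of 0.985 FPKM.

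All cells were Saccharomyces cerevisiae of the W303 background, either wild-type or carrying delta-rpd3. DS cells were collected 2 hours after the glucose in the medium had run out, and Q cells were purified on Percoll from stationary cultures after 7 days. Each condition had 2 isolates, which gives 8 libraries for the 4 conditions of 14 in the series, and the labels do not say whether isolates were separate cultures or clones. The libraries were strand-specific, depleted of rRNA and carried ERCC spike-in RNA, and the deposited values are log2 FPKM that the authors scaled per cell by means of these spike-ins. The table has 1 value per condition, so no SD, test or p-value stands behind any comparison, the read depth is unknown, and "higher" and "lower" describe single values. With bulk RNA, fewer cells of a type and less RNA per cell cannot be told apart.

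Quiescent yeast cells leave the cell cycle after their carbon source is spent, build a thick wall, store trehalose and glycogen, and keep most genes at a low level of transcription. Rpd3 removes acetyl groups from histone tails as part of Sin3 complexes, which DNA-binding repressors such as Ume6, Xbp1 and Stb3 bring to promoters. Ume6 binds the URS1 element of early meiotic and some metabolic genes, and Xbp1 is a repressor made under stress and in stationary phase.

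The target gene was checked first. RPD3 was at 70.8, 37.7 and 2.35 FPKM in wild-type log, DS and Q cells, had no value in mutant log cells, and was at 0.941 and 0.0279 FPKM in mutant DS and Q cells. The labels of the mutant were therefore matched by low RPD3. Genes expressed in cells of mating type a had a median of 110.5 FPKM in wild-type and 53.1 FPKM in mutant log cells. Genes expressed in alpha cells had 4.01 and 8.69 FPKM, so a-type transcripts were the higher group in log cells of both strains. MF(ALPHA)1 had no value in mutant log cells, so the alpha medians cover unlike sets of genes. In mutant Q cells the alpha gene SAG1, at 33.1 FPKM, was above AGA2, the highest a-type gene, at 29.5 FPKM.

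RNA of nearly every gene was lower in Q than in DS cells of the wild type, and much less so in the mutant. The median gene was at 21.1 FPKM in wild-type DS and 1.41 FPKM in wild-type Q cells, but at 34.9 and 19.2 FPKM in mutant DS and Q cells. The median change was -3.92 on the log2 scale in wild type (quartiles -5.03 and -2.91) and -0.87 in the mutant (quartiles -1.52 and -0.36). The median genotype difference was 2.95 (quartiles 2.17 and 3.89), a 7.74-fold difference between the changes, and 6216 of 6275 genes lay above 0. In wild type 6105 genes (97.3% of the genes compared) were at least 2-fold lower in Q cells and 16 (0.255%) at least 2-fold higher, whereas in the mutant 2733 (43.6%) were lower and 202 (3.22%) higher.

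The genotype difference was at least 2-fold on the side of the mutant for 6027 genes (96.0%) and at least 2-fold on the side of wild type for 27 (0.430%). A shift shared by almost all genes rests on the per-cell scale. Centring every column on its median gene takes such a shift out by construction. The median difference was then -0.09, with 1356 genes at least 2-fold higher and 1365 lower. Genes and groups are therefore read below against the median gene, as the difference minus 2.95. On this relative scale, which centring alters only by a constant, 1490 genes (23.7%) stood at least 2-fold above the median gene and 1205 (19.2%) at least 2-fold below it.

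The ends of this relative scale differed mainly in the wild-type change, which is part of the difference itself. Genes at least 2-fold above the median gene had a median change of -5.57 in wild type against -0.85 in the mutant, and those at least 2-fold below it had -2.41 and -0.97. The median in wild-type Q cells was 0.384 FPKM for the upper group, with 78.9% of its genes below 1 FPKM, and 4.88 FPKM for the lower group, with 11.04% below 1 FPKM. Of all genes compared 41.5% had less than 1 FPKM in wild-type Q cells, against 1.58% in mutant Q cells. Differences of such genes depend on how low values are treated: with a pseudocount of 1 the median difference was 2.09, and 852 genes stood at least 2-fold above it and 707 below.

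**Figure D1:**
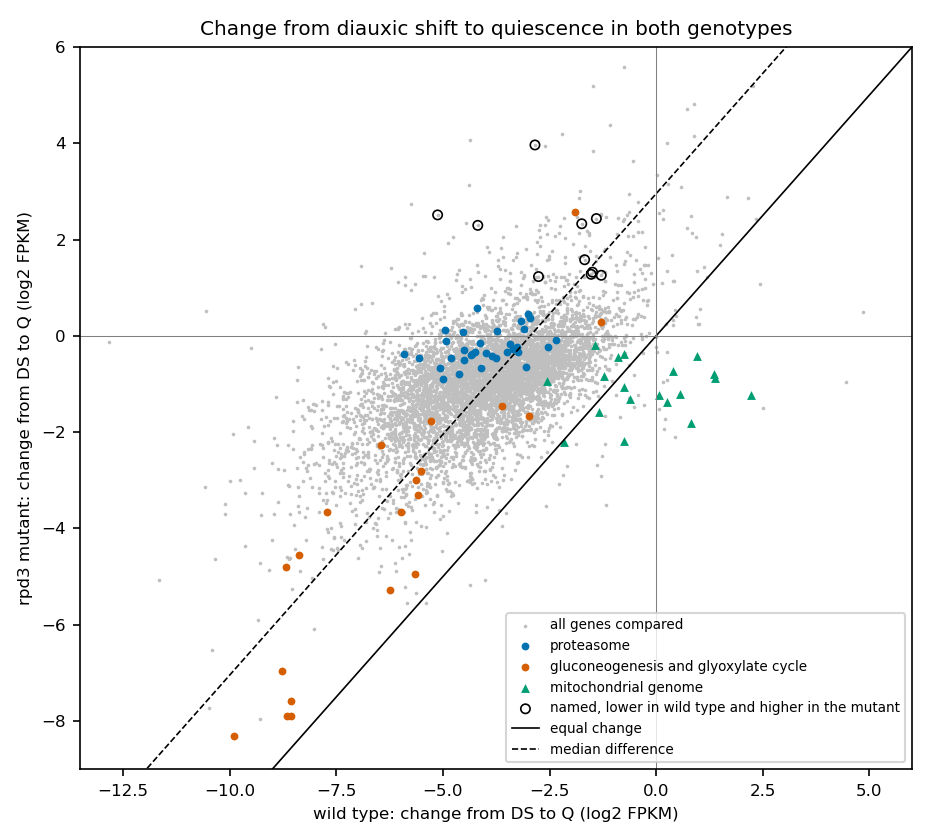
Each point is a gene, with its log2 change from DS to Q in wild type on the x axis and in the rpd3 mutant on the y axis; the solid line marks equal change and the dashed line the median difference of 2.95. Most points lie above the solid line, proteasome genes gather near 0 on the y axis, gluconeogenic genes run down to -8.31, and genes of the mitochondrial genome lie near or below the solid line.

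The level of a gene in growing cells, which the rule did not use, showed little relation to its genotype difference. In 5 groups of like size, from the lowest to the highest wild-type log levels, the median difference was 3.04, 3.04, 2.98, 2.87 and 2.81. Across 6275 genes, which share the 6 pooled values and are not independent, Spearman's rho between wild-type log level and the difference was -0.036. Genes ordered by the mutant to wild-type ratio in log cells gave medians between 2.91 and 3.08 in the 5 groups, and rho was -0.052 over 6257 genes. That ratio itself had a median of 0.26 in log cells on the log2 scale, 0.69 in DS and 3.72 in Q cells. The log ratio rests on a wild-type value to which 4 libraries belong, made with either 0.2 or 1 equivalents of the spike-in, and how they were combined is not given in the sources used here.

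Genes whose promoters had the core of the Xbp1 element had a somewhat larger median genotype difference than genes without it. The core CTCGAG, which reads the same on both strands, was present in 5.50% of 6001 windows of 300 bases upstream of annotated genes in the RefSeq genome of S288C (R64), a strain other than W303. The 294 compared genes with the core had median changes of -4.70 in wild type against -1.07 in the mutant and a median difference of 3.35, against -3.92, -0.87 and 2.93 for genes without it. The SD of the difference over genes was 1.36 with the core and 1.29 without it, wider than the gap between the medians. Motifs were not examined with a pseudocount. Of the genes with the core 39.5% stood at least 2-fold above the median gene and 11.6% at least 2-fold below it; without the core these shares were 22.8% and 19.0%. A match of letters is a description and does not show binding. The sites of 3 genes are shown with the core in capitals. These genes were picked after their values were seen, and all 3 stand at least 2-fold above the median gene, so they do not represent genes with the core. The sites lie 225 bases (SCW4), 156 bases (HXT6) and 160 bases (BUD4) upstream of the start codon.
SCW4: tttctcccattcCTCGAGgagaagatctct
HXT6: atataaaaagagCTCGAGaaaagacatatg
BUD4: aatgaaatattcCTCGAGaaaacaataatg
The differences of these 3 genes were 6.98, 5.38 and 4.24.

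The core of URS1, GCCGCC or its reverse complement GGCGGC, was present in 5.20% of the same windows. The 293 compared genes with it had a median difference of 3.06, against 2.96 for those without. Of the genes with the core 28.3% stood at least 2-fold above the median gene and 19.8% at least 2-fold below it, against 23.4% and 18.5% without it. The core was upstream of 5.12% of the genes compared and of 9.32% of those that were at least 2-fold lower in wild-type Q and at least 2-fold higher in mutant Q than in DS cells. The second share rests on few genes and was not tested. For the Xbp1 core the same shares were 5.14% and 4.24%. Single URS1 genes differed widely among themselves. The core was also upstream of BTN2 (difference 7.95), SDH2 (-0.15) and SNZ1 (-2.55), whose sites are not shown. The sites below come from genes that Rpd3 is known to repress (SPO13, CAR1, HOP1, INO1) and from TIS11 and HXT2, whose RNA was much higher in mutant Q than in mutant DS cells, picked after their values were seen; they lie 95, 155, 171, 258, 261 and 248 bases upstream of the start codon, and capitals mark the core.
SPO13: tattgagaaataGCCGCCgacaaaaaggaa
CAR1: cacttagcggtaGCCGCCgaggggtctaaa
HOP1: gtttttaacctgGGCGGCtaaattgtactt
INO1: agtatgcgcttcGGCGGCtaaatgcggcat
TIS11: tatatttgtcgcGCCGCCgcaaaatgcacc
HXT2: aattaacggtacGCCGCCtaacgatagtaa
The differences of these 6 genes were 6.26, 3.38, 2.62, 0.93, 6.41 and 2.93.

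Of the other motifs searched on both strands, AGGGG (the stress response element of Msn2 and Msn4) was in 22.2% of windows, AAAATTT (bound by Stb3) in 24.4%, GATGAG (the PAC element) in 19.1% and ACGCGT (bound by MBF) in 3.48%. Median differences with and without them were 2.83 and 2.997 for AGGGG, 2.90 and 2.99 for AAAATTT, 2.80 and 3.004 for GATGAG, and 3.31 and 2.95 for ACGCGT. No motif of the 6 contains another, though matches of different motifs can overlap at their ends.

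The genes with the highest difference were well expressed in wild-type DS cells and mostly below 1 FPKM in wild-type Q cells, yet stayed well above that in mutant Q cells. The 15 highest and 15 lowest were taken among 4079 genes with a geometric mean of at least 8 FPKM over the 4 conditions. Values of 4 conditions are given from here on in the order wild-type DS, wild-type Q, mutant DS and mutant Q. TIP1, which encodes a cell wall mannoprotein, was at 586, 0.805, 183 and 154 FPKM. It was thus low in wild-type Q cells alone, with a change of -9.51 in wild type, -0.25 in the mutant and a difference of 9.26. BTN2, whose product sorts misfolded proteins, was at 111, 0.512, 30.5 and 34.9 FPKM, again low in wild-type Q cells alone (difference 7.95).

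Among these genes, GPD2, TYE7, HOR2, PHM8 and NCA3 were at least 2-fold higher in mutant Q than in mutant DS cells and lower in wild-type Q than in wild-type DS cells. GPD2, a glycerol-3-phosphate dehydrogenase, was at 41.6, 0.770, 13.6 and 91.5 FPKM, with a difference of 8.50. TYE7, an activator of glycolytic genes, was at 31.8, 1.51, 3.58 and 31.3 FPKM (difference 7.52), with its lowest values in wild-type Q and mutant DS cells. PHM8, a phosphatase of lysophosphatidic acid and nucleotides, was at 118, 1.79, 55.8 and 122 FPKM (difference 7.17). All 3 were lower in mutant than in wild-type DS cells and far higher in mutant than in wild-type Q cells.

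Others of the highest genes were lower in Q cells of both genotypes, with the deeper change in wild type. HSP30, a stress protein of the plasma membrane, was at 5011, 7.31, 1931 and 286 FPKM, a change of -9.42 in wild type and -2.75 in the mutant. SCW4, a cell wall protein related to glucanases, was at 237, 0.233, 605 and 74.9 FPKM, with changes of -9.99 and -3.01. PNP1, purine nucleoside phosphorylase, was at 46.5, 0.0676, 158 and 34.8 FPKM (changes -9.43 and -2.19). OPI10, CIR1, SOP4 and NCA2 had differences of 7.51, 6.85, 6.75 and 6.63 by the same pattern.

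The top value belonged to YMR046C, a Ty retrotransposon gag frame, at 37.8, 0.0250, 78.8 and 112 FPKM with a difference of 11.07; near-identical copies make its reads hard to assign, so this value is uncertain. Of the 15 highest genes, 11 had less than 1 FPKM in wild-type Q cells. With a pseudocount of 1 their differences ranged from 3.32 to 8.09, all above the median of 2.09 on that scale.

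**Figure D2:**
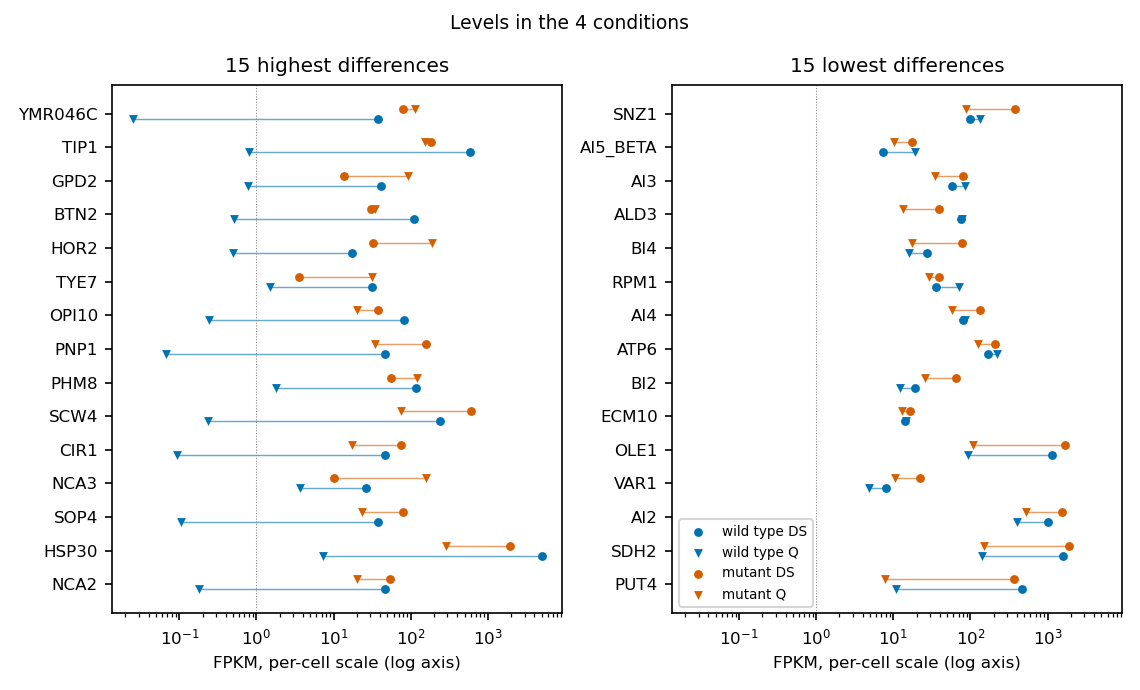
Levels in FPKM (log axis, per-cell scale) of the 15 genes with the highest and the 15 with the lowest genotype difference; circles are DS and triangles Q cells, blue is wild type and orange the mutant, and the dotted line is 1 FPKM. In the left panel the blue triangle of each gene lies to the left of its other symbols, while in the right panel the mutant is lower in Q than DS cells by as much as the wild type or more.

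At the other end, SNZ1 had the lowest difference among the genes with a geometric mean of at least 8 FPKM. SNZ1, which functions in vitamin B6 synthesis and is known as a stationary phase gene, was at 97.5, 133, 378 and 88.3 FPKM. It was slightly higher in wild-type Q than DS cells (0.45) and lower in mutant Q than DS cells (-2.10), a difference of -2.55. ALD3, an aldehyde dehydrogenase, was at 75.2, 78.8, 38.7 and 13.5 FPKM, level in wild type and lower in mutant Q cells (difference -1.59). ECM10, a mitochondrial HSP70 protein, was at 14.2, 14.4, 16.7 and 13.1 FPKM and differed little between any conditions.

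A few nuclear genes were lower in Q cells by like amounts in both genotypes, against the pattern of most genes. SDH2, the iron-sulfur subunit of succinate dehydrogenase, was at 1601, 139.6, 1892 and 148 FPKM, a change of -3.52 in wild type and -3.67 in the mutant. OLE1, the fatty acid desaturase, was at 1131, 91.8, 1684 and 108 FPKM (-3.62 and -3.96). PUT4, a proline permease, was at 459.8, 10.9, 367 and 7.81 FPKM (-5.40 and -5.56). For these genes the log2 ratio of mutant to wild-type Q cells was 0.09, 0.24 and -0.48, against a median of 3.72 for all genes.

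The other 9 of the 15 lowest genes lie on the mitochondrial genome, and none of the 15 highest does. All 19 mitochondrial genes compared stood at least 2-fold below the median gene, and 14 of them (73.7%) had a difference at or below 0, as against 59 of all genes compared (0.940%) and 33 of 5753 genes placed on nuclear chromosomes (0.574%). Their median change was -0.62 in wild type and -1.07 in the mutant; for nuclear genes it was -3.94 and -0.87. Nuclear chromosomes had median differences between 2.80 and 3.32 over all 16. The mitochondrial median was -1.13.

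Within the mitochondrial genome, genes of abundant respiratory subunits and the frames inside introns differed in the size and in some cases the direction of their changes. COX1, a cytochrome oxidase subunit, was at 2507, 1476, 2994 and 2293 FPKM, high in all 4 conditions, with changes of -0.77 and -0.39. COX2 was at 4185, 1538, 4715 and 4119 FPKM and OLI1, the ring subunit of ATP synthase, at 13225, 2239.6, 15035 and 7793 FPKM, with differences of 1.25 and 1.61, the only mitochondrial genes at least 2-fold on the side of the mutant. The lowest of these values was that of COX1 in wild-type Q cells, so all 3 mRNAs stayed abundant in every condition.

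ATP6, another ATP synthase subunit, was at 167, 219.6, 207 and 124 FPKM, higher in wild-type Q and lower in mutant Q than in the respective DS cells (difference -1.13). AI5_BETA and AI3, frames within COX1 introns, were at 7.39, 18.9, 17.6 and 10.1 and 57.7, 85.7, 80.3 and 34.9 FPKM, with the same opposite directions (differences -2.15 and -1.77). BI4, a frame within a COB intron, was at 27.0, 16.0, 78.7 and 17.4 FPKM, lower in Q cells of both genotypes (difference -1.43). RPM1, the RNA of mitochondrial RNase P, was at 36.3, 70.9, 38.6 and 28.7 FPKM (difference -1.40). Intron frames overlap the unspliced RNA of their host, and how reads were divided between them is not given in the sources used here.

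ATP8 was at least 2-fold higher in wild-type Q and at least 2-fold lower in mutant Q than in DS cells, as was 1 other gene of the 6275, the row Q0143, which matched no annotated gene. ATP8, also an ATP synthase subunit, was at 3.41, 16.0, 3.56 and 1.53 FPKM, so it was high in wild-type Q cells alone (difference -3.45). Q0143 was at 3.10, 17.8, 9.31 and 3.28 FPKM, also highest in wild-type Q cells (difference -4.02). Both rows rest on low values. ATP8 was far below ATP6 in each of the 4 conditions, so its pattern is uncertain.

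**Figure D3:**
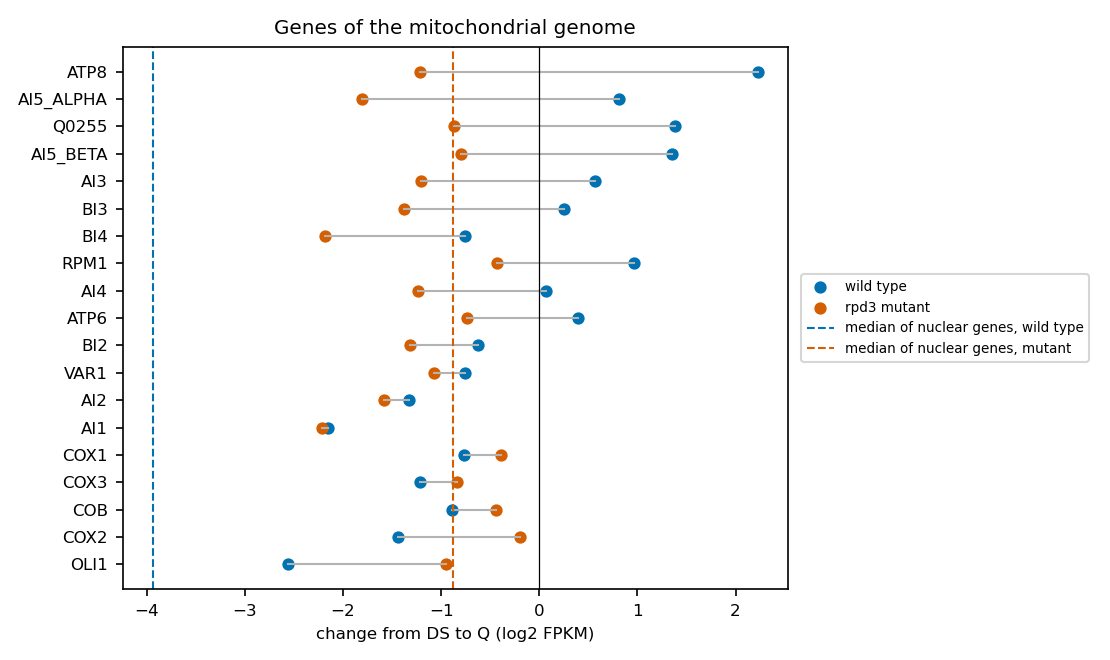
Log2 change from DS to Q of the 19 genes of the mitochondrial genome in wild type (blue) and the rpd3 mutant (orange), ordered by genotype difference, with the medians of nuclear genes as dashed lines (-3.94 and -0.87). All blue points lie to the right of the blue dashed line, and for 14 genes the orange point lies to the left of the blue one.

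In the reverse pattern, 136 genes (2.17%) were at least 2-fold lower in wild-type Q than DS cells and at least 2-fold higher in mutant Q than DS cells. Their median change was -2.58 in wild type and 1.57 in the mutant. With centred columns 40 genes met the rule, so the opposite directions of most of the 136 rest on the per-cell scale. The rule uses the levels in both states, so the genotypes' levels in Q cells, where 96.8% of all genes were at least 2-fold higher in the mutant, say nothing further about these genes.

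Among the 10 of these genes with the highest mutant Q level, SSA3, an HSP70 chaperone made in stationary phase, was at 274, 104, 129 and 697 FPKM, lowest in wild-type Q and highest in mutant Q cells (difference 3.84). ICS2, of unknown function, was at 146, 8.01, 113 and 553 FPKM, with the same order (difference 6.48). PHO89, a sodium-phosphate cotransporter, was at 503, 74.2, 206 and 484 FPKM, so that mutant Q cells were level with wild-type DS cells (difference 3.99). GSC2, a glucan synthase subunit used in sporulation and under stress, was at 166, 57.6, 65.8 and 159.6 FPKM, with a like arrangement (difference 2.80).

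Genes of fatty acid use and of proteins akin to succinate dehydrogenase were in the same set. POT1, the peroxisomal thiolase, was at 153, 62.6, 109 and 260.3 FPKM (difference 2.55). YMR118C and YLR164W, named SHH3 and SHH4 in the RefSeq annotation and homologous to succinate dehydrogenase subunits, were at 218, 65.0, 45.2 and 227 and 317, 113, 79.3 and 198 FPKM. Both were lower in mutant than wild-type DS cells and higher in mutant than wild-type Q cells (differences 4.07 and 2.81). NCA3, which takes part in the expression of mitochondrial ATP synthase subunits, was at 26.4, 3.68, 10.04 and 157 FPKM, with mutant Q cells far above the others (difference 6.81). BDF2, a bromodomain protein, was at 41.4, 13.0, 55.3 and 166 FPKM (difference 3.26).

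The 33 gene lists are taken by function, and each list median of the difference stands against 2.95 for all genes, with 23.7% of all genes at least 2-fold above the median gene and 19.2% at least 2-fold below. Proteasome genes were lower in wild-type Q than DS cells and changed by less than 2-fold in the mutant. All 33 were at least 2-fold lower in wild-type Q than DS cells (median -4.10), near the 97.3% of all genes, and none was in the mutant (median -0.33), against 43.6% of all genes. Their changes ran from -5.92 to -2.36 in wild type and from -0.90 to 0.59 in the mutant, and the median difference was 3.83. These ranges did not overlap, but neither did the quartile ranges of all genes given above. Of the 33 genes 12 stood at least 2-fold above the median gene and 0 at least 2-fold below.

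PRE6, an alpha subunit of the core particle, was at 119, 1.97, 141 and 108 FPKM, low in wild-type Q cells alone (difference 5.53). PRE3 and PUP1, catalytic beta subunits, were at 176, 3.75, 155 and 113 and 87.4, 2.83, 90.7 and 98.2 FPKM (differences 5.10 and 5.07). RPT2, an ATPase of the regulatory particle, was at 80.4, 15.7, 74.6 and 70.7 FPKM, and its difference of 2.28 was the lowest of the list. In 3 conditions each of these genes kept a like level, and only wild-type Q cells stood apart.

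Stress genes also stood above the median gene, with a list median of 3.999 over 28 genes, 14 at least 2-fold above the median gene and 2 at least 2-fold below. Their median change was -5.27 in wild type and -1.27 in the mutant. They were lower in mutant than in wild-type DS cells (median log2 ratio -1.12, against 0.69 for all genes). SSA1 and SSA2, constitutive HSP70 chaperones, were at 1127, 4.18, 568 and 118 and 767, 2.69, 448 and 88.3 FPKM (differences 5.81 and 5.81), and HSP82, an HSP90 chaperone, at 613, 19.6, 277 and 312 FPKM (difference 5.14). Each was lowest in wild-type Q cells, and HSP82 was level between mutant DS and Q cells.

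Against the list, SIP18, a hydrophilin, was at 6195, 1071, 1379.6 and 352 FPKM and CTT1, the cytosolic catalase, at 167, 21.7, 23.9 and 8.67 FPKM. Both were lower in the mutant than in wild type also in Q cells, with differences of 0.56 and 1.49. HSP12, a small membrane-associated stress protein, was at 15297, 361, 2336 and 254 FPKM, likewise lower in mutant Q cells (difference 2.202).

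The list of stationary phase and quiescence genes was divided. Its median difference was 2.67 over 23 genes, with 3 at least 2-fold above the median gene and 8 at least 2-fold below. Its median change was -2.05 in wild type, the mildest among the nuclear lists apart from peroxisomal beta-oxidation (-2.04), and 0.05 in the mutant. SPS100, a spore wall protein gene also active in stationary phase, was at 223, 133, 16.9 and 807 FPKM, lowest in mutant DS and highest in mutant Q cells (difference 6.32). RGI1, which has a role in respiratory energy metabolism, was at 236, 0.0726, 278 and 8.31 FPKM, lower in Q cells of both strains (difference 6.60). SPG5, which acts on the proteasome in stationary phase, was at 375, 295, 757 and 1012 FPKM and HBT1 at 153, 124, 28.6 and 47.7 FPKM, with differences of 0.76 and 1.05 and little change in wild type.

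Most genes for the use of non-fermentable carbon were lower in Q than DS cells of both genotypes. Among the 20 members of the list for gluconeogenesis and glyoxylate metabolism, 18 were at least 2-fold lower in mutant Q cells, against 43.6% of all genes, the list median was -6.12 in wild type against -3.67 in the mutant, and the median difference was 2.22 (3 genes above and 9 below the median gene at 2-fold). ICL1, isocitrate lyase, was at 3163, 8.36, 6286 and 26.4 FPKM, MLS1, malate synthase, at 3098, 7.70, 4567 and 19.0 FPKM, and PCK1, which catalyses the committed step of gluconeogenesis, at 4142, 10.9, 5405 and 28.3 FPKM. Their changes lay between -8.65 and -8.56 in wild type and between -7.91 and -7.58 in the mutant, with differences of 0.67, 0.75 and 0.99. ATO3, a member of the ammonium and acetate transporter family, was an exception at 78.1, 20.9, 22.3 and 134 FPKM, higher in mutant Q than in mutant DS cells (difference 4.49).

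Respiratory genes of the nucleus kept close to the median gene as a list, with a median difference of 2.74 over 36 genes and medians of -5.81 in wild type and -3.13 in the mutant. ATP2, the beta subunit of ATP synthase, was at 1761, 2.79, 2587 and 97.6 FPKM (difference 4.57) and COX7 at 1171, 121, 983 and 157 FPKM (difference 0.63). ATP2 was far lower in wild-type Q than mutant Q cells, whereas COX7 was close in both. Within succinate dehydrogenase, SDH3 and SDH4, the membrane anchor subunits, had differences of 5.42 and 4.24, whereas SDH2 and SDH1, the catalytic subunits, had -0.15 and 1.41. ACO1, aconitase, was at 4448, 77.9, 4738 and 101 FPKM, close between the genotypes in both conditions (difference 0.29), and CIT3, a mitochondrial citrate synthase, at 102, 13.1, 269 and 499.7 FPKM, highest in mutant Q cells (difference 3.85).

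Genes of peroxisomal beta-oxidation had a list median of 2.14 over 15 genes, 2 at least 2-fold above the median gene and 6 below. Their median change was -2.04 in wild type and -0.02 in the mutant. SPS19, a dienoyl-CoA reductase, was at 89.4, 58.0, 9.95 and 76.3 FPKM (difference 3.56), lowest in mutant DS cells, and ANT1, the peroxisomal adenine nucleotide carrier, at 87.1, 0.334, 148 and 23.4 FPKM (difference 5.36), lowest in wild-type Q cells.

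Sugar transporters and some glycolytic genes stood above the median gene. The 18 hexose transporter and sensor genes had a median difference of 4.595, with 10 at least 2-fold above the median gene and 2 at least 2-fold below. HXT6 and HXT7, high-affinity transporters with near-identical sequences whose reads may be divided arbitrarily, were at 904, 11.7, 1662 and 897 and 808, 13.3, 1453 and 934 FPKM, low in wild-type Q cells alone (differences 5.38 and 5.29). HXT2, another high-affinity transporter, was at 7.02, 33.8, 25.3 and 929 FPKM, higher in Q than DS cells of both genotypes (changes 2.27 and 5.20). Several other members had about 1 FPKM or less in wild-type Q cells, and with a pseudocount of 1 the list median stood 0.35 above that of all genes rather than 1.64.

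Among 17 genes of glycolysis and fermentation, 6 stood at least 2-fold above the median gene and 2 at least 2-fold below, with a list median of 3.13. ENO1, enolase, was at 1682, 30.8, 398 and 388 FPKM, level in the mutant (difference 5.74). PYK2, a pyruvate kinase made when glycolytic flux is low, was at 53.4, 3.39, 6.49 and 23.2 FPKM (difference 5.81), and PFK1, a phosphofructokinase subunit, at 272, 29.1, 290.2 and 47.4 FPKM (difference 0.61). FBA1, TDH3, ENO2, CDC19 and PDC1 were not compared. In trehalose and glycogen metabolism the median difference was 3.10 over 20 genes, from 1.13 for GLG2, a glycogenin, to 5.01 for GSY2, the main glycogen synthase, at 159, 0.787, 131 and 20.9 FPKM.

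Genes of ribosomes and their assembly stood below the median gene. The 134 ribosomal protein genes had a median difference of 1.97, with 1 at least 2-fold above the median gene and 65 at least 2-fold below. Their median level was 125 FPKM in wild-type DS and 494 FPKM in mutant DS cells, and their median change was -3.64 in wild type and -1.75 in the mutant. RPS30A, a small subunit gene, was at 522, 144, 1203 and 414 FPKM (difference 0.32) and RPL26A, a large subunit gene, at 95.9, 1.77, 296 and 92.8 FPKM (difference 4.09). Both were higher in mutant than wild-type DS cells. Reads of the many paralog pairs may be divided uncertainly.

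The 65 genes of mitochondrial ribosomal proteins had a median difference of 2.11, with 4 above and 29 below the median gene at 2-fold, and medians of -4.82 in wild type and -2.49 in the mutant. MRPS17 was at 48.4, 5.95, 98.2 and 21.4 FPKM (difference 0.83) and MRPL32 at 37.2, 0.0932, 74.2 and 15.4 FPKM (difference 6.38). The 59 ribosome biogenesis genes had a median difference of 2.25, with 2 above and 16 below, and medians of -2.63 and -0.41. DBP6, a helicase of large subunit assembly, was at 11.1, 0.511, 40.3 and 45.7 FPKM, level in the mutant (difference 4.62), and NOP16 at 17.3, 9.51, 40.0 and 53.3 FPKM (difference 1.28).

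Histone genes had a median difference of 1.68 over 11 genes, with 0 at least 2-fold above the median gene and 7 at least 2-fold below. HHF2, a histone H4 gene, was at 165, 28.3, 411 and 98.4 FPKM, lower in Q cells of both strains (difference 0.48). CSE4, the centromeric H3 variant, was at 15.4, 0.764, 40.9 and 24.5 FPKM (difference 3.60) and HTZ1, H2A.Z, at 57.8, 3.57, 90.1 and 49.8 FPKM (difference 3.16), so the variants had larger differences than any core histone gene of the list.

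Many cell cycle genes had less than 1 FPKM in wild-type Q cells and more than that in mutant Q cells. The 37 genes of G2/M and M/G1 had a median difference of 4.23, with 22 at least 2-fold above the median gene and 1 at least 2-fold below; 30 of them had less than 1 FPKM there, and with a pseudocount of 1 the list stood 0.16 above the median of all genes. CLB4, a mitotic cyclin, was at 4.06, 0.0331, 17.5 and 10.997 FPKM (difference 6.27), EGT2, a daughter cell separation gene, at 53.0, 0.235, 37.0 and 6.49 FPKM (difference 5.31), and SIC1, the inhibitor of B-type cyclin kinase, at 42.6, 12.3, 64.3 and 46.3 FPKM (difference 1.32). SIC1 alone of these was well above 1 FPKM in wild-type Q cells.

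For 32 G1/S genes the median difference was 3.48, with 10 above and 3 below at 2-fold. CLN3, the upstream G1 cyclin, was at 14.02, 0.280, 54.6 and 26.5 FPKM (difference 4.603), and SWI4, a subunit of the SBF activator, at 8.67, 0.138, 17.9 and 9.06 FPKM (difference 4.99). WHI5, a repressor of SBF, was at 3.20, 1.26, 2.93 and 3.88 FPKM (difference 1.74), close in 3 conditions and lowest in wild-type Q cells. With a pseudocount of 1 the list stood at -0.48 against the median of all genes, so its place above the median gene rested on values near or below 1 FPKM.

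**Figure D4:**
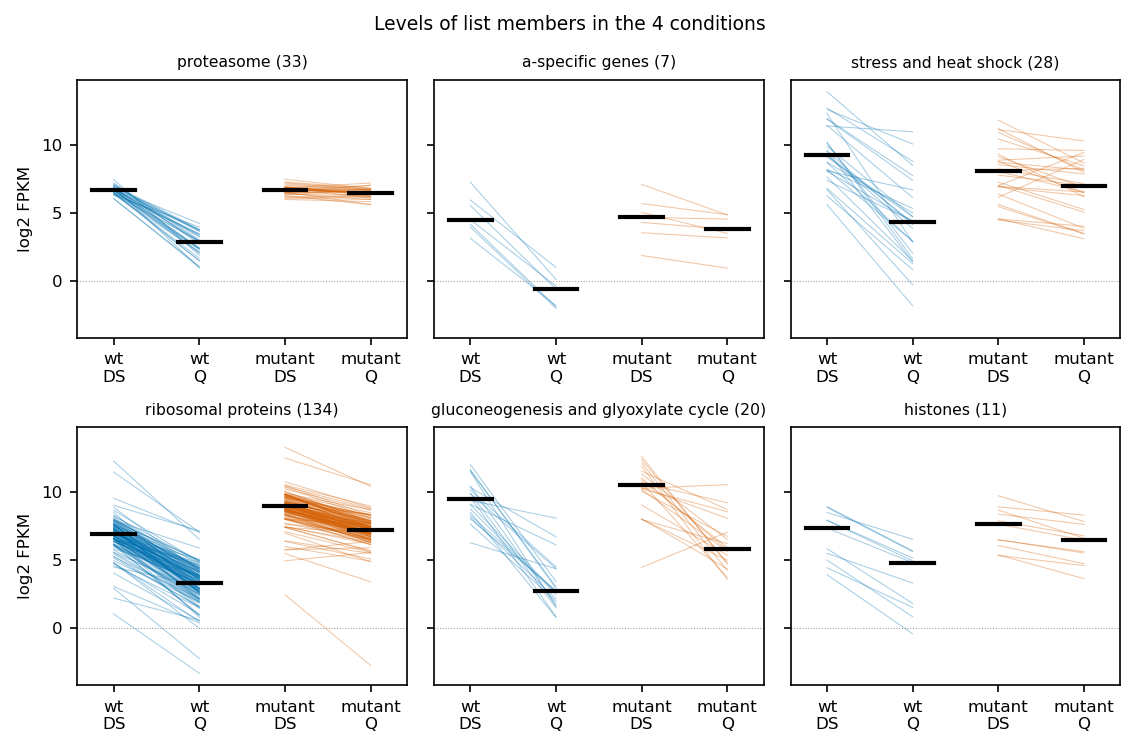
Log2 FPKM of every member of 6 gene lists in wild-type DS and Q cells (blue lines) and mutant DS and Q cells (orange lines); thick bars are list medians and the dotted line is 1 FPKM. Proteasome lines slope down in wild type and are nearly flat in the mutant, while most gluconeogenic lines slope down in both genotypes.

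Genes that the literature gives as repressed by Rpd3 varied widely in their difference. All were lowest in wild-type Q cells, where 96.8% of all genes were at least 2-fold below the mutant. All were also higher in mutant than wild-type DS cells, with log2 ratios from 0.90 (CAR2) to 5.21 (INO1), above the median of all genes. Their median difference was 2.95 over 9 genes, as for all genes, with 1 at least 2-fold above the median gene and 3 at least 2-fold below. SPO13, a meiotic regulator of chromosome segregation, was at 1.27, 0.0182, 7.44 and 8.21 FPKM, CAR1, arginase, at 81.2, 1.62, 549.5 and 114 FPKM, and CAR2, ornithine aminotransferase, at 45.6, 7.27, 85.0 and 118 FPKM. The differences of these 3 genes were 6.26, 3.38 and 3.13.

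INO1, inositol phosphate synthase, was at 53.3, 3.76, 1970.0 and 264 FPKM, and IME2, the kinase of meiotic entry, at 4.90, 0.852, 77.5 and 28.7 FPKM. Both had the highest ratios of mutant to wild-type DS cells in the list, at 5.21 and 3.98 on the log2 scale. They were lower in Q than DS cells of both strains, with differences of 0.93 and 1.09. PHO5, the secreted acid phosphatase, was at 62.6, 0.559, 294 and 20.2 FPKM, with large changes of -6.81 and -3.86 (difference 2.95). SPO11, which makes meiotic DNA breaks, HOP1, of the meiotic chromosome axis, and TRK2, a potassium transporter, had differences of 3.36, 2.62 and 1.52.

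The list of early meiotic genes (24 compared) had a median difference of 3.39, with 8 above and 4 below at 2-fold. Its median changes were -3.45 in wild type and 0.05 in the mutant. The URS1 core was found in 13 of 23 promoter windows of the list (56.5%). One of the genes below was CRS5, a metallothionein gene rather than a meiotic one, at 493 FPKM in wild-type DS cells. REC8, the meiotic cohesin, was at 3.13, 0.259, 2.81 and 11.6 FPKM (difference 5.64), and MND1, of meiotic recombination, at 0.989, 0.993, 19.9 and 17.1 FPKM (difference -0.23), level within each genotype and high in the mutant. The median level in wild-type DS cells was 3.46 FPKM, and with a pseudocount of 1 the list stood at -0.65 against the median of all genes.

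Among 13 genes of Rpd3 complex subunits the median difference was 2.47. SIN3, the scaffold, was at 38.0, 3.20, 54.5 and 29.8 FPKM (difference 2.70), SAP30 at 11.5, 0.208, 30.6 and 14.2 FPKM (difference 4.68) and SDS3 at 10.7, 2.97, 15.6 and 10.8 FPKM (difference 1.32). RPD3 itself had -1.07, with mutant values that describe a deleted gene. In the list of 22 recruiters and repressors the median was 2.85. XBP1 was at 36.1, 10.6, 36.3 and 24.4 FPKM, equal in DS cells of both strains (difference 1.19), UME6 at 5.59, 0.965, 24.8 and 16.7 FPKM (difference 1.97), and NRG1, a repressor of glucose-repressed genes, at 24.95, 7.08, 18.2 and 56.8 FPKM, higher in mutant Q than in mutant DS cells (difference 3.46). Other histone deacetylases and sirtuins had a median of 2.87 over 19 genes, from 1.64 for SIR4 to 5.98 for RFM1; HDA1 was at 10.2, 0.137, 25.6 and 11.5 FPKM (difference 5.06).

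The a-specific genes had the highest list median, 4.89 over 7 genes, with 6 at least 2-fold above the median gene and 0 at least 2-fold below. AGA2, an agglutinin subunit, was at 46.9, 0.670, 51.9 and 29.5 FPKM and STE6, the exporter of a-factor, at 18.1, 0.273, 19.9 and 13.9 FPKM, low in wild-type Q cells alone (differences 5.31 and 5.53). STE2, the alpha-factor receptor, was at 22.8, 0.781, 33.2 and 11.4 FPKM (difference 3.32). ASG7, STE6, BAR1, AGA2 and STE2 had less than 1 FPKM in wild-type Q cells. With a pseudocount of 1 BAR1 and STE2 stood only 0.17 and 0.18 above the median of all genes, and MFA1 stood 2.17 above it. The list then no longer had the highest median.

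Iron uptake genes had a median difference of 3.99 over 21 genes, with 11 above and 1 below at 2-fold, and with a pseudocount of 1 the list stood 0.27 above the median of all genes. TIS11, an RNA-binding protein that degrades mRNAs under iron shortage, was at 4.38, 0.949, 1.61 and 29.5 FPKM, lower in wild-type Q and higher in mutant Q than in DS cells (difference 6.41). SIT1, a siderophore transporter, was at 20.4, 0.702, 72.6 and 125 FPKM (difference 5.65), and FIT2, a cell wall protein that binds siderophores, at 27.1, 0.116, 8.27 and 6.87 FPKM (difference 7.599). FET3, the ferroxidase, had a difference of 1.93, the lowest of the list.

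Ergosterol genes had a median difference of 3.84 over 23 genes, with 8 above and 2 below at 2-fold, and cell wall mannoproteins 3.57 over 22 genes, with 9 and 3. ERG28 was at 121, 0.585, 99.3 and 27.4 FPKM (difference 5.83) and ERG4 at 35.1, 0.402, 165 and 5.98 FPKM (difference 1.66), both lower in Q cells of the 2 strains. YGP1, a secreted glycoprotein made under nutrient limitation, was at 1152, 3.13, 131 and 33.5 FPKM, lower in mutant than wild-type DS cells and higher in mutant Q cells (difference 6.55). Amino acid synthesis had 3.53 over 49 genes, with 13 and 7, from 0.28 for LEU4, at 1583, 32.0, 3306 and 81.3 FPKM, to 6.10 for HOM3, aspartate kinase, at 215, 0.458, 315 and 46.0 FPKM.

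For the remaining lists the median difference lay between 2.29 and 3.78. They were autophagy and vacuolar proteases (23 genes), RNA polymerase subunits (31), translation factors (31), the phosphate regulon (22), the TCA cycle (17), subtelomeric families (27) and alpha-specific genes (4). ATG1, the kinase that starts autophagy, was at 42.6, 23.2, 44.6 and 66.9 FPKM, higher in mutant Q cells than in any other condition (difference 1.46). COS8, a subtelomeric membrane protein gene with close copies whose reads may be divided uncertainly, was at 82.4, 2.51, 3.06 and 5.08 FPKM (difference 5.76), high in wild-type DS cells alone.

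The size of the distance from the median gene depended on the treatment of low values for many lists. With a pseudocount of 1 the list median relative to that of all genes was 1.67 for stress genes and 1.45 for the proteasome, both more than 2-fold above it. The a-specific list, highest without a pseudocount, stood below both. On that scale ribosomal proteins stood at -0.37, ribosome biogenesis at -0.48, mitochondrial ribosomal proteins at -0.53 and histones at -0.44, below the median by less than 2-fold. Gluconeogenesis stood at -0.02, the Rpd3-repressed list at -0.75, stationary phase genes at 0.34 and nuclear respiratory genes at 0.50, the last 2 with a turn of sign. The sign also turned for Rpd3 complex subunits (0.23), the phosphate regulon (0.14), recruiters and repressors (0.02), other histone deacetylases (0.05), subtelomeric families (-0.16) and alpha-specific genes (-0.05). Mitochondrially encoded proteins stayed lowest, at -1.71. A pseudocount of 10 put ribosomal proteins at 0.24, histones at 0.44 and gluconeogenesis at 0.47, all above the median of all genes, so the place of these lists below it did not hold at every setting.

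**Figure D5:**
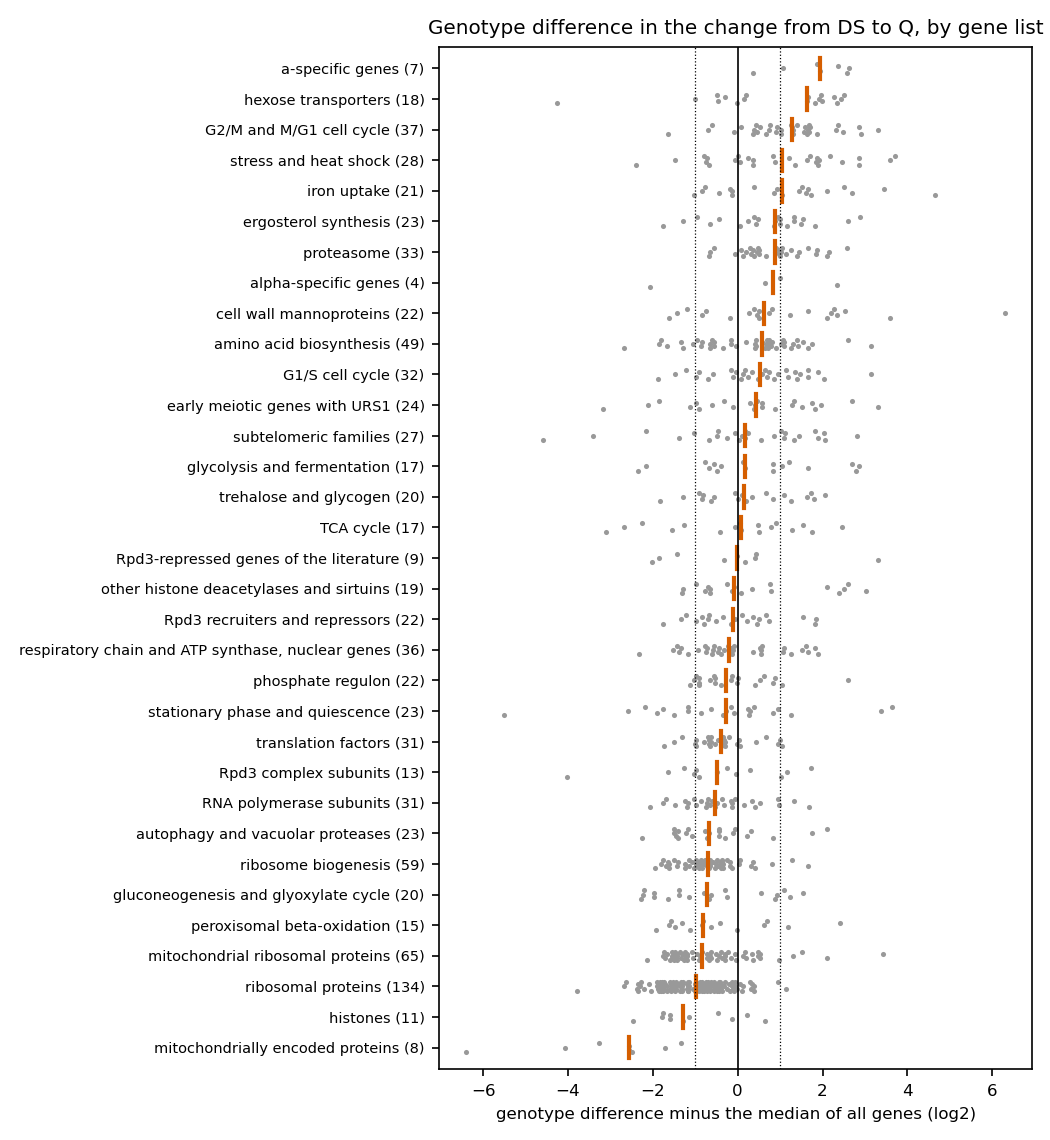
Genotype difference minus the median of all genes (log2) for each member (grey points) of 33 gene lists, with list medians as orange bars and the number of genes compared in brackets; dotted lines mark 2-fold above and below the median gene. With no pseudocount the a-specific list has the highest median at 1.94 and the mitochondrially encoded proteins the lowest at -2.57.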

How the data were processed

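RNA was measured in the wild type and the rpd3 mutant as described above. The authors deposited 1 table of log2 FPKM, scaled to cell number by means of ERCC spike-ins, per the labels and the series' design text. The submitters' processing notes name CASAVA, TopHat2, SAMtools, Cuffdiff and Cufflinks 2.2.1; their settings, the genome build, the annotation and the way isolates were combined were not given in the sources used here. For the log base the values themselves were used: in wild-type log cells the sum of FPKM times length in kb was 1295740 if base 2 is taken, and 31190800 if base e is taken.

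From the table, 4 rows of repeated names, blank cells and 108 mutant DS values that duplicate entries of mutant Q to 3 decimals were left out. Changes are differences of the deposited log2 values with no pseudocount, computed with Python 3.11.15, numpy 2.4.6 and pandas 2.3.3, and a change counts as called at 2-fold. With 1 value per condition no test was possible, and totals per library are unknown, so precision cannot be stated. Of the 6275 names 5772 matched the RefSeq R64 annotation, which served for chromosomes and upstream sequence; no position is printed, since the authors' build is unknown.

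Named genes were the 15 highest and 15 lowest differences among genes with a geometric mean of at least 8 FPKM, without systematic names unless among the first 3, the 10 highest mutant Q values among genes of opposite direction, a few members at both ends of each list, and the Rpd3-repressed list in full. The members and lists were chosen with earlier results of these data known. Alternatives were pseudocounts of 0.1, 1 and 10, no filter, a filter at 10 FPKM, centred columns, the repeated values kept, protein-coding reference names only and, added after seeing the data, values below 1 FPKM raised to 1 FPKM. The computation was tested on simulated data.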

Additional observations from a re-analysis of the deposited data

Results flagged for a closer look

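On the per-cell scale the genes below moved in opposite directions by at least 2-fold in the 2 genotypes between DS and Q cells. Fewer genes did so with centred columns. Against the median gene, the differences of POT1, YLR164W and GSC2 were -0.41, -0.14 and -0.15, so these 3 had no larger difference than most genes. Those of the other genes lower in wild type and higher in the mutant lay above the median gene. Each rests on 1 value per condition, and the difference was not tested. Lower in wild type and higher in the mutant were SSA3 (genotype difference 3.84), ICS2 (6.48), PHO89 (3.99), POT1 (2.55), YMR118C (4.07), YLR164W (2.81), HOR2 (7.64), BDF2 (3.26), GSC2 (2.80) and NCA3 (6.81), the 10 with the highest mutant Q level among 136 such genes. Higher in wild type and lower in the mutant were ATP8 (-3.45) and the unannotated row Q0143 (-4.02), both at low levels.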

How the results depend on the processing

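The values rest on 1 pooled value per condition, many wild-type Q values lie below 1 FPKM, and the read depth behind them is unknown. No paired analysis was possible because the table carries no column per isolate, and for the same reason no isolate could be left out. With a pseudocount of 1 the median difference was 2.09 and the wild-type median -2.91; 10 genes were higher in wild-type Q cells, and 852 and 707 stood above and below the median gene at 2-fold. With a pseudocount of 10 the medians were 0.74 and -1.32; 2162 genes had a difference of at least 2-fold, 2 were higher in wild-type Q cells, 83 higher and 1768 lower in mutant Q cells, 726 above and 179 below the median gene, and 28 of opposite direction; relative to the median gene 16 of 33 lists changed sign, among them the G2/M list (-0.15), histones (0.44), ribosomal proteins (0.24), gluconeogenesis (0.47), peroxisomal beta-oxidation (0.57), nuclear respiratory genes (1.19), autophagy (0.34), translation factors (0.52), G1/S (-0.55) and early meiotic genes (-0.20), and so did 4 of 40 named genes, among them PNP1 (-0.16). The sign changed for 10 lists with a pseudocount of 1. With a filter at 10 FPKM 17 genes had a difference of at least 2-fold on the side of wild type, 9 were higher in wild-type Q cells and 88 of opposite direction. With centred columns the median difference was -0.092, the wild-type median -0.016 and the mutant median -0.012; 1356 differences were at least 2-fold higher and 1365 lower, 1562 and 1707 genes were higher and lower in wild-type Q cells, 670 and 1032 in mutant Q cells, and 40 of opposite direction. With values below 1 FPKM raised to it, an alternative added after seeing the data, the wild-type median was -3.31. The remaining settings (pseudocount 0.1, no filter, repeated values kept, protein-coding names) moved none of these medians or counts by 1.5 times.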

Other observations

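Glycerol genes, gathered after their values were seen, were divided in the same comparison. The glycerol-3-phosphatase genes RHR2 and HOR2, also known as GPP1 and GPP2, and the dehydrogenase gene GPD2 were higher in mutant Q than in mutant DS cells. RHR2 was at 48.8 FPKM in wild-type DS, 33.6 in wild-type Q, 45.0 in mutant DS and 561 in mutant Q cells, a genotype difference of 4.18. HOR2 was at 17.3, 0.497, 32.8 and 187 FPKM in the same order (difference 7.64). RHR2 and HOR2 were thus highest in mutant Q cells among these 4 conditions. GPD1, the osmotic stress paralog of GPD2, was at 374, 26.2, 243 and 98.3 FPKM, lower in Q cells of both strains (difference 2.53). GUT1 (glycerol kinase) and GUT2 (mitochondrial glycerol-3-phosphate dehydrogenase), which act in glycerol use, had differences of 2.91 and 2.65, near the median of 2.95. The other genes gathered lay on both sides of that median. FPS1 had 1.885 and STL1 2.40, while DAK1 had 3.73, DAK2 4.355, GUP1 4.37 and GCY1 4.93.

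Retrotransposon frames were also gathered, after the top value had been seen, by the RefSeq product name. Over 14 gag frames, which include YMR046C, the median change was -2.28 in wild type against 0.71 in the mutant, and the median difference was 3.12, with 2 frames at least 2-fold above the median gene and 0 at least 2-fold below. Over 42 gag-pol frames the median change was -2.87 in wild type against -0.77 in the mutant, and the median difference was 1.88, with 5 frames at least 2-fold above the median gene and 25 at least 2-fold below. Those 5 had only 0.14 to 0.21 FPKM in wild-type Q cells. With a pseudocount of 1 every gag-pol frame was within 2-fold of the median of all genes, from -0.62 (YIL082W-A) to 0.14 (YER160C). Reads of these frames come from near-identical copies, and gag-pol frames share sequence with gag frames, so they cannot be assigned to 1 row with certainty.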
